A study of Danio rerio with 4 samples.

Results

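Genes for the metalloproteinases that cut the extracellular matrix and shed proteins from cell surfaces, and for the inhibitors that hold them back, were compared between zebrafish larvae exposed to PM2.5 and unexposed larvae. Every gene ID whose symbol begins with mmp, timp or adam followed by a digit, or with adamts, was taken, which gave 66 of the 32520 distinct gene IDs in the table. They comprised 25 matrix metalloproteinase (MMP) genes, 5 genes for tissue inhibitors of metalloproteinases (TIMP), 15 ADAM genes, 17 ADAMTS genes and 4 ADAMTS-like genes. The choice went by names alone, but it was made with earlier results of these data known. Symbols did not always single out a gene, because mmp13a, mmp15a and adamts15b each stood on 2 gene IDs, and reads may have been divided between IDs that share a symbol. A reference table of gene names gives 1 of the mmp15a IDs as zpd and 1 of the adamts15b IDs as ADAMTS8, and both were kept under the symbol rule.

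MMPs are zinc enzymes, most of them secreted as inactive precursors, that degrade collagens, gelatin and other matrix proteins. TIMPs bind their active sites, and TIMP2 also takes part with the membrane enzyme MMP14 in activating the precursor of MMP2. ADAMs are membrane proteins, many of which release the outer part of receptors, ligands and adhesion molecules, while ADAMTSs are secreted and cut proteoglycans, procollagens and von Willebrand factor.

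The tested animals were larvae exposed to 12000000 smog particles between 72 and 120 hours after fertilization (PM2.5, 2 libraries), and the controls were untreated larvae (2 libraries). RNA came from whole larvae, 5 to 7 per group, and the labels do not give a strain, an age beyond the exposure times, or separate clutches for the replicates. A p-value here therefore sets the group difference only against the scatter of these 4 libraries, pooled in part across genes, and that scatter may be technical. The levels are in TPM, a unit in which reads are corrected for gene length and every library is brought to the same total, so levels of different genes may be set side by side. TPM keeps no depth, and the submitters state only that samples averaged about 20000000 reads.

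Between 24121 and 25138 genes were above 0 in each library. On log2(TPM + 1), the correlation across genes was 0.969 between the PM2.5 libraries, 0.979 between the control libraries and 0.934 to 0.951 across the groups. Of 12 marker lists for cell types of the larva, all 5 muscle markers were lower with PM2.5, keratinocyte markers split into 3 higher and 4 lower of 7, and 2 of 5 fibroblast, 2 of 3 hepatocyte and 1 of 3 enterocyte markers were lower. Among 6 macrophage, 5 chondrocyte and 2 tested osteoblast markers 1 each was higher, the neutrophil list had 1 higher (mpx) and 1 lower (cpa5, known in zebrafish from mast cells) of 6 tested, and no endothelial, neuronal or glial marker passed the test. Over all tested genes 8.46% were higher and 2.62% lower. The marker lists were chosen with earlier results of these data known, so these counts are not a result about cell types. In RNA of whole larvae, fewer cells of a type and less RNA per cell cannot be told apart.

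Few of the protease and inhibitor genes passed the test. Testing was limited to genes whose 4 libraries averaged 1 TPM or more, and of the 56 members that met this, 2 passed the limma test at an adjusted p under 0.05, adam28 as higher and timp2a as lower. That is 3.57% of the tested members, against 11.1% of all 20874 tested genes. In the upward direction it was 1.79% of members against 8.46% of genes, and in the downward direction 1.79% against 2.62%. At an unadjusted p under 0.05, 11 members passed (19.6%, against 27.2% of all tested genes). The 2 PM2.5 values lay wholly above or below the 2 control values for 28 members, 13 higher and 15 lower (50.0%, against 56.3% of all tested genes). Over all 20874 tested genes, 7641 lay wholly higher and 4116 wholly lower. The median size of the log2 fold change was 0.18 over the members and 0.24 over all tested genes, and the median log2 fold change was 0.02 over the members and 0.07 over all tested genes. These shares and medians were not matched for level, and the tested members had a lower median level than all tested genes, as given below.

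**Figure D1:**
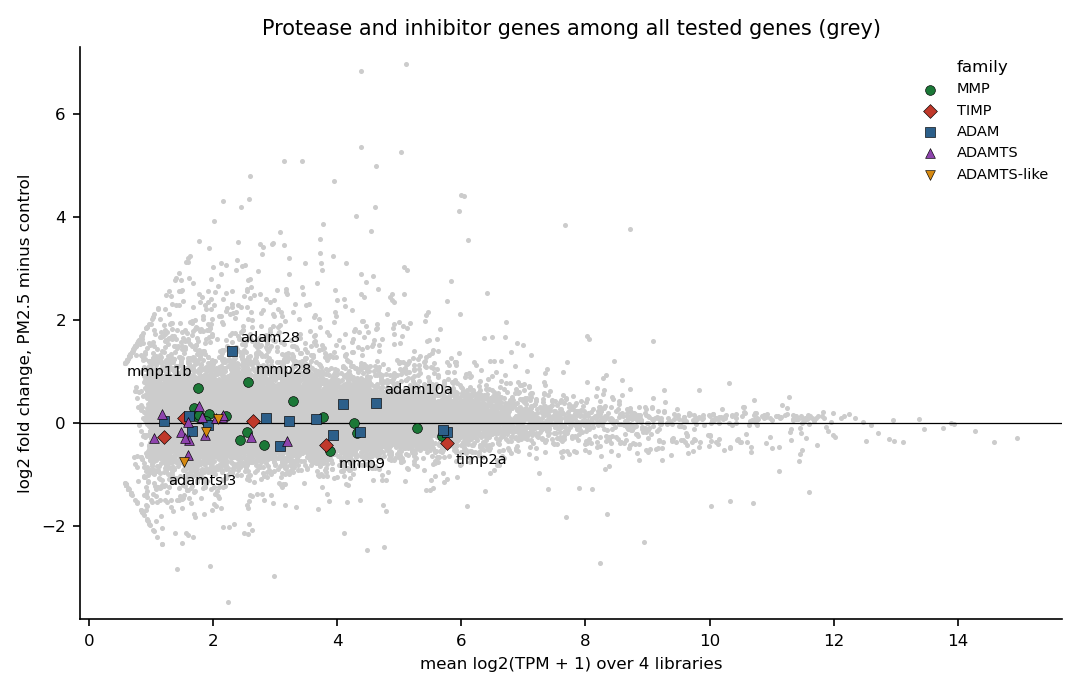
The log2 fold change of TPM + 1 (PM2.5 minus control, vertical axis) is plotted against the mean log2(TPM + 1) over the 4 libraries for the 20874 tested genes (grey) and the 56 tested members, coloured and shaped by family. The members lie within the body of the grey points, with adam28 at 1.41 as the highest and adamtsl3 at -0.75 as the lowest.

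The members differed widely in level. The median mean level was 3.58 TPM over the tested members, against 9.25 TPM over all tested genes, and 15 members reached 10 TPM. The 5 with the highest level were timp2a, adam10b, adam23a, mmp30 and mmp2. The values of the first 4 of these lay between 45.3 and 62.5 TPM and overlapped one another. mmp2 lay below those 4 genes in every library, at 35.7 and 37.9 TPM with PM2.5 and 41.7 and 37.1 TPM in controls. The size of change that the test could call depended on the level. A log2 fold change of at least 0.47 was needed at the median of the 15 members at or above 10 TPM, and of at least 1.02 at the median of the 41 members below it.

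**Figure D2:**
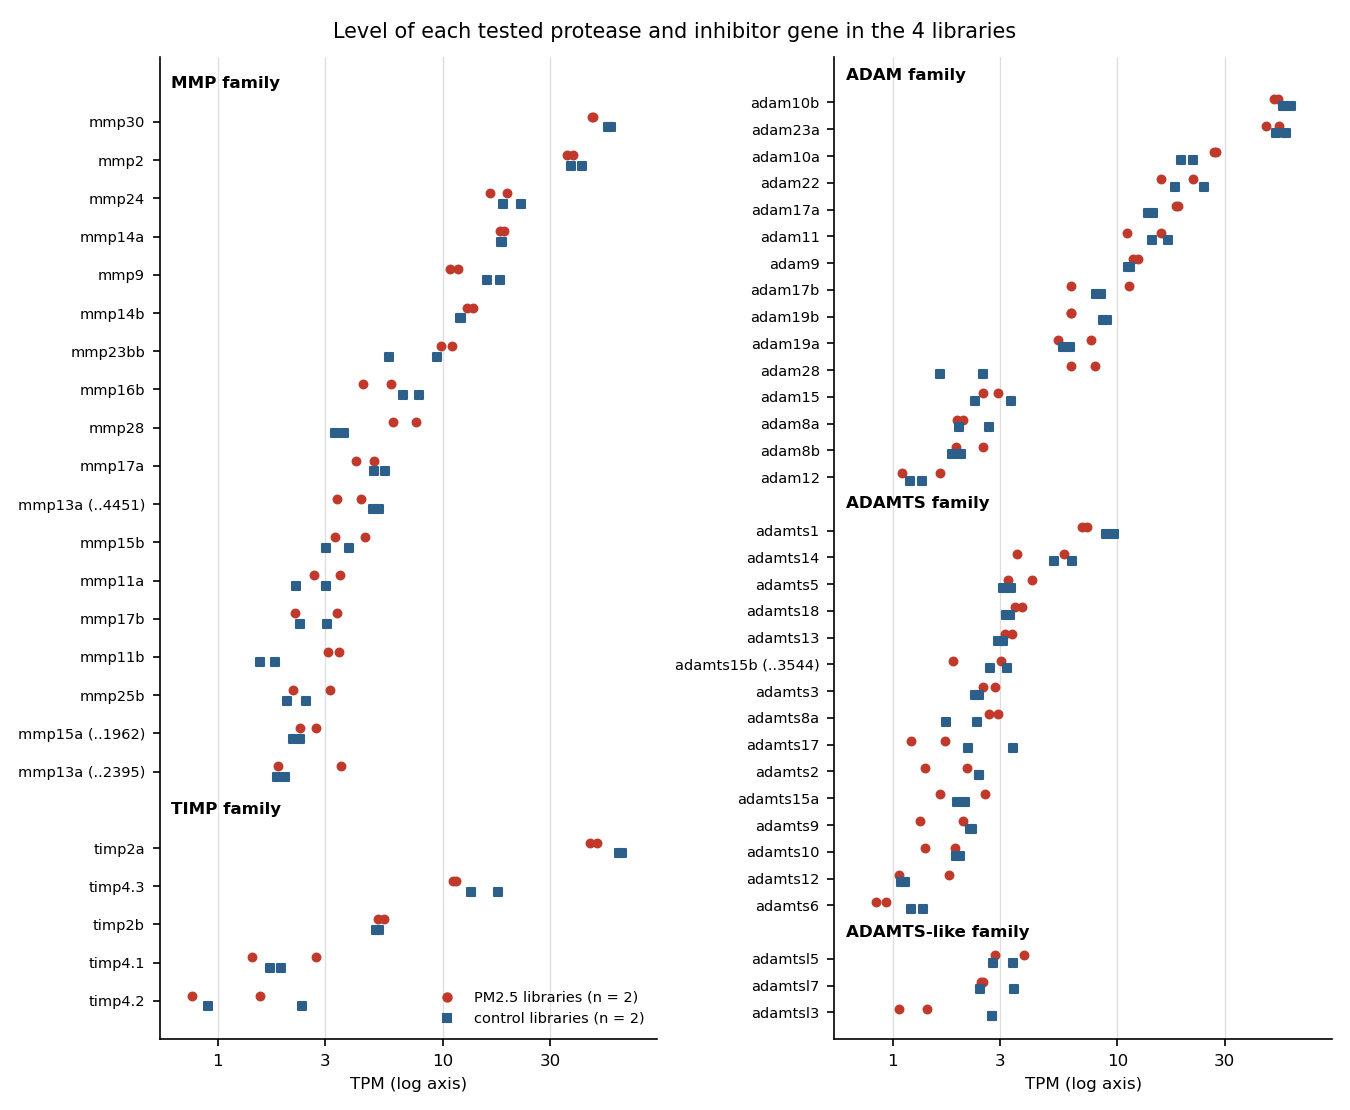
TPM (log axis) of each of the 56 tested members in the 2 PM2.5 libraries (red circles) and the 2 control libraries (blue squares), by family and ordered by level. Digits in brackets are the end of the gene ID where 2 IDs share a symbol, and adam28 has its PM2.5 values of 7.99 and 6.23 TPM well apart from its control values of 1.62 and 2.52 TPM.

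Among the gelatinases and collagenases, none of the 4 tested genes passed. mmp2, the gelatinase A gene, had 35.7 and 37.9 TPM in PM2.5 libraries, against 41.7 and 37.1 TPM in control libraries. Its groups overlapped (log2 fold change -0.09, 95% interval -0.33 to 0.14, adjusted p = 0.60). mmp9, the gelatinase B gene (ENSDARG00000042816, chromosome 8), had 11.7 and 10.8 TPM in PM2.5 libraries, against 18.0 and 15.7 TPM in control libraries. Both PM2.5 values were below both control values, with a PM2.5 to control ratio of 0.666, and the difference lay just outside the threshold (log2 fold change -0.54, SE 0.13, 95% interval -0.86 to -0.22, adjusted p = 0.051). mmp9 is also a marker of neutrophils, whose marker list includes it and summed to 112 and 122 TPM in PM2.5 libraries and 149 and 151 TPM in control libraries. The list also holds cpa5, a carboxypeptidase gene known in zebrafish from mast cells, which had the highest level in it and was lower (log2 fold change -0.66). Of the 6 tested genes of the list, cpa5 and mmp9 were the 2 with a negative log2 fold change. Leaving them out set the direction of the remaining sum, which is therefore no result about neutrophils. Without cpa5 and mmp9 the other 5 genes summed to 40.0 and 44.2 TPM in PM2.5 libraries and 30.4 and 32.7 TPM in control libraries. Among them the peroxidase gene mpx was higher (log2 fold change 0.92), lyz, npsn and csf3r did not pass (log2 fold changes 0.23, 0.17 and 0.55), and cxcr1 was listed at 0 in 1 control library. The part of these cells in the mmp9 values was not tested.

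The collagenase symbol mmp13a stood on 2 gene IDs of chromosome 10 that differed in direction, and reads shared between them cannot be separated here. ENSDARG00000114451 had 3.39 and 4.32 TPM in PM2.5 larvae and 4.87 and 5.20 TPM in control larvae (log2 fold change -0.32, 95% interval -0.80 to 0.16, adjusted p = 0.36). ENSDARG00000012395 had 1.84 and 3.54 TPM in PM2.5 larvae and 1.84 and 1.98 TPM in control larvae (log2 fold change 0.31, 95% interval -0.43 to 1.04, adjusted p = 0.57), where the value of PM2.5 library 2 alone stood apart. Without that library its log2 fold change was -0.03.

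Of the other secreted MMPs, the 4 tested genes had a median log2 fold change of 0.43. mmp28, the gene for epilysin, which in mammals is made in the epidermis, had 7.57 and 6.03 TPM in PM2.5 libraries, against 3.65 and 3.31 TPM in control libraries. The groups did not overlap and the ratio was 1.95 (log2 fold change 0.79, SE 0.19, 95% interval 0.32 to 1.26, adjusted p = 0.052). Keratinocyte markers summed to 4872 and 4950 TPM in PM2.5 libraries and 11869 and 11714 TPM in control libraries, with krt4, krt5, cyt1 and cyt1l lower and tp63, epcam and evpla higher, and none was at 0. Their part in the mmp28 values was not tested. mmp11b, a stromelysin-3 gene, had 3.45 and 3.10 TPM in PM2.5 libraries, against 1.54 and 1.80 TPM in control libraries. Its ratio was 1.96, without overlap, and it did not pass (log2 fold change 0.68, 95% interval 0.11 to 1.25, adjusted p = 0.13). mmp30 was the MMP gene with the highest level and had 46.5 and 45.9 TPM in PM2.5 libraries, against 54.1 and 55.8 TPM in control libraries. The PM2.5 values were 0.841 times the control values on average, without overlap (log2 fold change -0.24, 95% interval -0.43 to -0.06, adjusted p = 0.097).

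None of the 10 tested membrane-type MMP genes passed, and their median log2 fold change was 0.08. mmp14a and mmp14b encode MT1-MMP, the membrane collagenase that activates pro-MMP2. mmp14a had 18.0 and 18.7 TPM in PM2.5 libraries, against 18.3 and 18.1 TPM in control libraries (log2 fold change 0.01, 95% interval -0.24 to 0.27, adjusted p = 0.96). Its groups overlapped, and its log2 fold change turned negative after both rescalings of the libraries (-0.07 and -0.08). mmp14b had 13.7 and 12.8 TPM in PM2.5 libraries, against 11.9 and 12.1 TPM in control libraries (log2 fold change 0.13, 95% interval -0.17 to 0.43, adjusted p = 0.55). mmp24, the gene of a transmembrane MMP known from the mammalian nervous system, had 16.2 and 19.4 TPM in PM2.5 larvae and 18.5 and 22.4 TPM in control larvae, with overlapping groups (log2 fold change -0.19, 95% interval -0.54 to 0.16, adjusted p = 0.45). The transmembrane MMP gene mmp16b had 4.43 and 5.86 TPM in PM2.5 libraries, against 6.65 and 7.82 TPM in control libraries, without overlap (log2 fold change -0.43, 95% interval -0.90 to 0.04, adjusted p = 0.22). mmp23bb, whose product is a type II membrane protein, had 9.81 and 11 TPM in PM2.5 larvae and 5.77 and 9.44 TPM in control larvae (log2 fold change 0.44, 95% interval -0.12 to 0.99, adjusted p = 0.28). Its control values differed from each other by more than its PM2.5 values did.

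All 5 TIMP genes in the table were tested, and 1 was called. timp3 was not analysed here. timp2a (ENSDARG00000061226, chromosome 12) had 45.3 and 48.4 TPM in PM2.5 libraries, against 60.8 and 62.5 TPM in control libraries. Every PM2.5 value was below every control value, and the means were 46.8 ± 2.25 TPM in PM2.5 larvae and 61.7 ± 1.16 TPM in control larvae (SD, n = 2 each), a ratio of 0.760. The difference passed the limma test (log2 fold change -0.39, SE 0.08, 95% interval -0.58 to -0.20, adjusted p = 0.029). It was lost without any 1 of the 4 libraries (log2 fold change -0.44 to -0.34, adjusted p 0.076 to 0.19), where the group left with 1 library was assumed to vary like the other, and in a fit without the intensity trend (adjusted p = 0.14). The fibroblast list, which includes the collagen genes col1a1a and col1a2, summed to 837 and 814 TPM in PM2.5 libraries and 949.9 and 968 TPM in control libraries. Most of this sum came from col1a1a and col1a2, with means of 419 and 296 TPM in PM2.5 larvae and 487 and 368 TPM in control larvae. Both collagen genes were lower, pdgfra, lum and dcn did not pass (log2 fold changes 0.07, -0.23 and 0.12), and no marker was at 0. Their part in the timp2a result was not tested.

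timp2b, the other copy of timp2, had 5.47 and 5.17 TPM in PM2.5 libraries, against 5.03 and 5.21 TPM in control libraries. Its groups overlapped (log2 fold change 0.05, 95% interval -0.36 to 0.46, adjusted p = 0.89), and its log2 fold change turned negative after both rescalings (-0.03 and -0.07). The 3 timp4 genes stood next to one another in gene order on chromosome 11. timp4.3 had 11.1 and 11.4 TPM in PM2.5 libraries, against 13.4 and 17.7 TPM in control libraries, again without overlap but short of the threshold (log2 fold change -0.42, 95% interval -0.81 to -0.03, adjusted p = 0.16). timp4.1 had 2.74 and 1.41 TPM in PM2.5 larvae and 1.91 and 1.71 TPM in control larvae (log2 fold change 0.10, 95% interval -0.65 to 0.84, adjusted p = 0.88), and timp4.2 had 1.54 and 0.767 TPM in PM2.5 larvae and 0.903 and 2.38 TPM in control larvae (log2 fold change -0.26, 95% interval -1.22 to 0.70, adjusted p = 0.72). Both were low and spread more than 1.5-fold within at least 1 group.

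Summed over their genes, the TIMPs gave 66.1 and 67.2 TPM in PM2.5 libraries and 82.1 and 89.4 TPM in control libraries, of which timp2a made up 68.5 and 72.1% in PM2.5 libraries and 74.1 and 69.9% in control libraries. The MMPs summed to 192 and 202 TPM in PM2.5 libraries and 206 and 212 TPM in control libraries. The groups did not overlap for either family, as was so for 56.3% of all tested genes. As deposited, the lower MMP sum did not stand for most MMPs, since 11 of the 18 tested had a positive log2 fold change. That count depended on the scaling. After the TMM-type rescaling 9 MMPs were positive and 9 negative, and after quantile normalization 8 were positive and 10 negative. Among MMPs with a negative log2 fold change as deposited, mmp30 had means of 46.2 TPM in PM2.5 larvae and 54.9 TPM in control larvae. For mmp9 the means were 11.2 TPM in PM2.5 larvae and 16.8 TPM in control larvae. The ADAMs summed to 216 and 237 TPM in PM2.5 libraries and 214 and 238 TPM in control libraries, with overlap. For the ADAMTSs the sums were 39.0 and 45.8 TPM in PM2.5 libraries and 46.8 and 47.8 TPM in control libraries, without overlap. The ADAMTS-like genes summed to 8.55 and 7.04 TPM in PM2.5 libraries and 9.98 and 9.37 TPM in control libraries, also without overlap. The ratio of summed MMP to summed TIMP TPM was 2.91 and 3.0 in PM2.5 libraries and 2.51 and 2.37 in control libraries. Both PM2.5 ratios exceeded both control ratios. A scaling by 1 factor per library, such as the TMM-type factors, leaves this ratio as it is, and the TIMP sum holds only the 5 TIMP genes analysed here, without timp3. The ratio of mmp2 to timp2a TPM was 0.790 and 0.783 in PM2.5 libraries and 0.685 and 0.593 in control libraries. No test was made on these sums, which are a description of RNA and hold no measure of active enzyme. All 66 members together gave 521.5 and 558.5 TPM in PM2.5 libraries and 559.1 and 596.8 TPM in control libraries, so that the groups nearly met. After a rescaling by TMM-type factors the sums were 515 and 531 TPM in PM2.5 libraries and 592 and 600.1 TPM in control libraries.

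**Figure D3:**
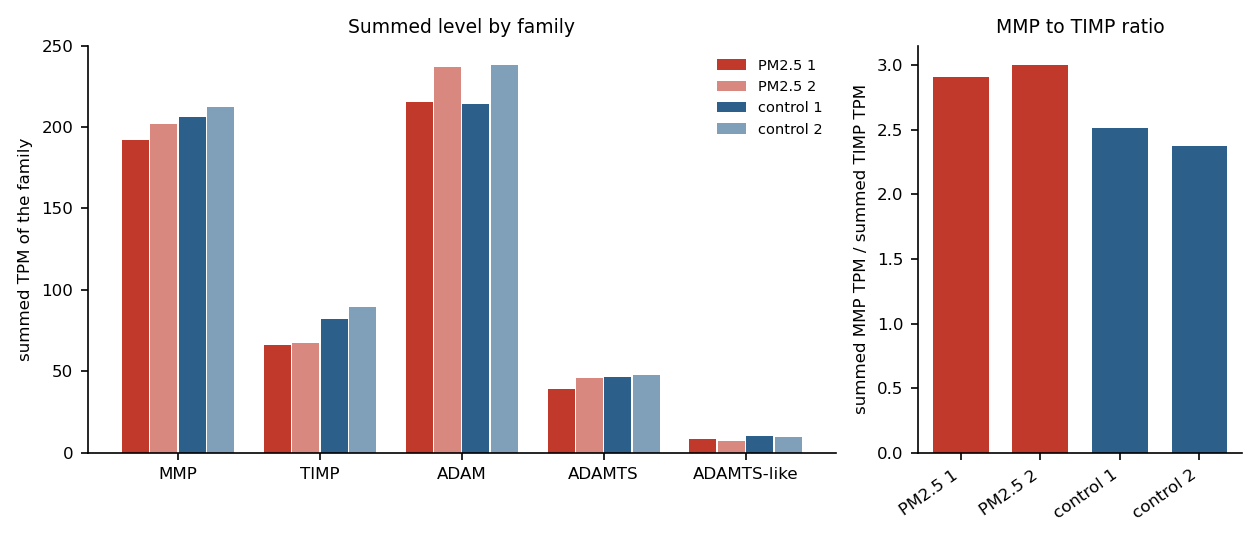
Left, summed TPM of each family in the 2 PM2.5 libraries (red shades) and the 2 control libraries (blue shades). Right, the ratio of summed MMP to summed TIMP TPM per library, 2.91 and 3.0 in PM2.5 libraries against 2.51 and 2.37 in control libraries.

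Of the 15 ADAM genes 1 passed. adam28 (ENSDARG00000035514, chromosome 5), whose human counterpart is known from lymphocytes, had 7.99 and 6.23 TPM in PM2.5 libraries, against 1.62 and 2.52 TPM in control libraries. The lowest PM2.5 value was more than 2 times the highest control value. The means were 7.11 ± 1.25 TPM in PM2.5 larvae and 2.07 ± 0.637 TPM in control larvae (SD, n = 2 each), a ratio of 3.43 and the largest change of any tested member (log2 fold change 1.41, SE 0.24, 95% interval 0.82 to 1.99, adjusted p = 0.018). The call was lost without any 1 of the 4 libraries (log2 fold change 1.19 to 1.62, adjusted p 0.068 to 0.13), and narrowly in the fit without the intensity trend (adjusted p = 0.054). Of blood cell lists, the 6 macrophage markers summed to 168 and 174 TPM in PM2.5 libraries and 38.7 and 40.9 TPM in control libraries, most of it in PM2.5 libraries from cd68, which had 145 and 149 TPM in PM2.5 larvae and 21.4 and 20.4 TPM in control larvae. The other markers mpeg1.1, csf1ra, csf1rb, marco and spi1b did not pass, and none was at 0. The neutrophil list, described above with cpa5 and mmp9 in it, went the other way. It summed to 112 and 122 TPM in PM2.5 libraries and 149 and 151 TPM in control libraries. No list of lymphocyte markers was read. The part of blood cells in the adam28 result was not tested.

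adam10a and adam17a, copies of the main sheddase genes, lay higher in both PM2.5 libraries without passing. ADAM10 cuts Notch receptors and cadherins, and adam10a (ENSDARG00000053468, chromosome 7) had 27.6 and 26.8 TPM in PM2.5 libraries, against 19.1 and 21.8 TPM in control libraries (log2 fold change 0.40, SE 0.11, 95% interval 0.13 to 0.66, adjusted p = 0.072). Its second copy, adam10b (ENSDARG00000015502, chromosome 25), had the higher level and a log2 fold change of the opposite sign, with 49.7 and 51.6 TPM in PM2.5 libraries, against 54.6 and 59.2 TPM in control libraries (log2 fold change -0.16, 95% interval -0.36 to 0.03, adjusted p = 0.25). ADAM17 releases tumour necrosis factor and ligands of the epidermal growth factor receptor. adam17a had 18.5 and 18.3 TPM in PM2.5 libraries, against 13.6 and 14.4 TPM in control libraries (log2 fold change 0.37, 95% interval 0.10 to 0.65, adjusted p = 0.090). adam17b had 6.24 and 11.3 TPM in PM2.5 larvae and 8.0 and 8.41 TPM in control larvae, and the 2 PM2.5 values lay on either side of the controls (log2 fold change 0.03, 95% interval -0.60 to 0.66, adjusted p = 0.95). adam19b, a gene of the meltrin group, had 6.24 and 6.19 TPM in PM2.5 libraries, against 9.02 and 8.63 TPM in control libraries, without overlap (log2 fold change -0.45, 95% interval -0.80 to -0.09, adjusted p = 0.12).

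The 3 tested ADAMs that lack a working protease site, and serve as neuronal adhesion proteins in mammals, all had negative log2 fold changes with overlapping groups, and none passed. adam23a had 45.9 and 52.4 TPM in PM2.5 larvae and 50.9 and 56.1 TPM in control larvae (log2 fold change -0.12, 95% interval -0.36 to 0.12, adjusted p = 0.49), adam22 had 15.7 and 21.6 TPM in PM2.5 larvae and 18.0 and 24.2 TPM in control larvae (log2 fold change -0.17, 95% interval -0.66 to 0.31, adjusted p = 0.62), and adam11 had 11 and 15.6 TPM in PM2.5 larvae and 14.2 and 16.7 TPM in control larvae (log2 fold change -0.22, 95% interval -0.67 to 0.23, adjusted p = 0.51). In all 3 genes library 1 of each group had the lower value of its pair. The negative signs of adam22 and adam11 rested on single libraries, since the log2 fold change of adam22 was 0.04 without PM2.5 library 1 and 0.03 without control library 2, and that of adam11 was 0.01 without PM2.5 library 1.

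None of the 15 tested ADAMTS genes passed. In the group that cleaves aggrecan and versican, 6 genes had a median log2 fold change of -0.10. adamts1 had 6.98 and 7.29 TPM in PM2.5 libraries, against 8.86 and 9.67 TPM in control libraries (log2 fold change -0.34, 95% interval -0.69 to 0.02, adjusted p = 0.20). Both PM2.5 values were below both control values. adamts5, next to adamts1 in gene order on chromosome 1, had 3.27 and 4.18 TPM in PM2.5 larvae and 3.35 and 3.09 TPM in control larvae (log2 fold change 0.16, 95% interval -0.36 to 0.68, adjusted p = 0.69), and adamts8a had 2.96 and 2.69 TPM in PM2.5 larvae and 1.73 and 2.37 TPM in control larvae (log2 fold change 0.33, 95% interval -0.26 to 0.93, adjusted p = 0.44). The groups of adamts5 overlapped and those of adamts8a did not. Of the procollagen N-propeptidases, adamts2 had 1.39 and 2.15 TPM in PM2.5 larvae and 2.43 and 2.42 TPM in control larvae (log2 fold change -0.32, 95% interval -0.97 to 0.32, adjusted p = 0.49) and adamts14 had 3.58 and 5.80 TPM in PM2.5 larvae and 5.22 and 6.25 TPM in control larvae (log2 fold change -0.27, 95% interval -0.86 to 0.32, adjusted p = 0.54). PM2.5 library 1 held the lowest value of both genes, and the groups of adamts14 overlapped. The remaining gene of this group, adamts3, named after its values were seen, differed in sign and did not overlap. It had 2.52 and 2.86 TPM in PM2.5 libraries, against 2.32 and 2.43 TPM in control libraries (log2 fold change 0.13, 95% interval -0.43 to 0.68, adjusted p = 0.77). adamts13, which cuts von Willebrand factor, had 3.41 and 3.17 TPM in PM2.5 libraries, against 2.94 and 3.09 TPM in control libraries (log2 fold change 0.10, 95% interval -0.41 to 0.60, adjusted p = 0.81). The lowest log2 fold change of the family was that of adamts17, with 1.21 and 1.72 TPM in PM2.5 libraries, against 3.44 and 2.17 TPM in control libraries (log2 fold change -0.62, 95% interval -1.33 to 0.09, adjusted p = 0.24). adamts12 had 1.07 and 1.78 TPM in PM2.5 larvae and 1.09 and 1.14 TPM in control larvae (log2 fold change 0.18, 95% interval -0.57 to 0.93, adjusted p = 0.76).

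The ADAMTS-like proteins share the ancillary domains of ADAMTSs but have no protease domain. adamtsl3 had 1.42 and 1.07 TPM in PM2.5 libraries, against 2.76 and 2.76 TPM in control libraries, and the ratio of 0.451 was the lowest of all tested members. It did not pass (log2 fold change -0.75, SE 0.26, 95% interval -1.37 to -0.13, adjusted p = 0.12), and at its level a log2 fold change of 1.07 would have been needed. adamtsl5 had 3.84 and 2.86 TPM in PM2.5 larvae and 2.78 and 3.44 TPM in control larvae (log2 fold change 0.08, 95% interval -0.49 to 0.65, adjusted p = 0.87), and adamtsl7 had 2.46 and 2.54 TPM in PM2.5 larvae and 3.48 and 2.46 TPM in control larvae (log2 fold change -0.17, 95% interval -0.76 to 0.42, adjusted p = 0.71).

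**Figure D4:**
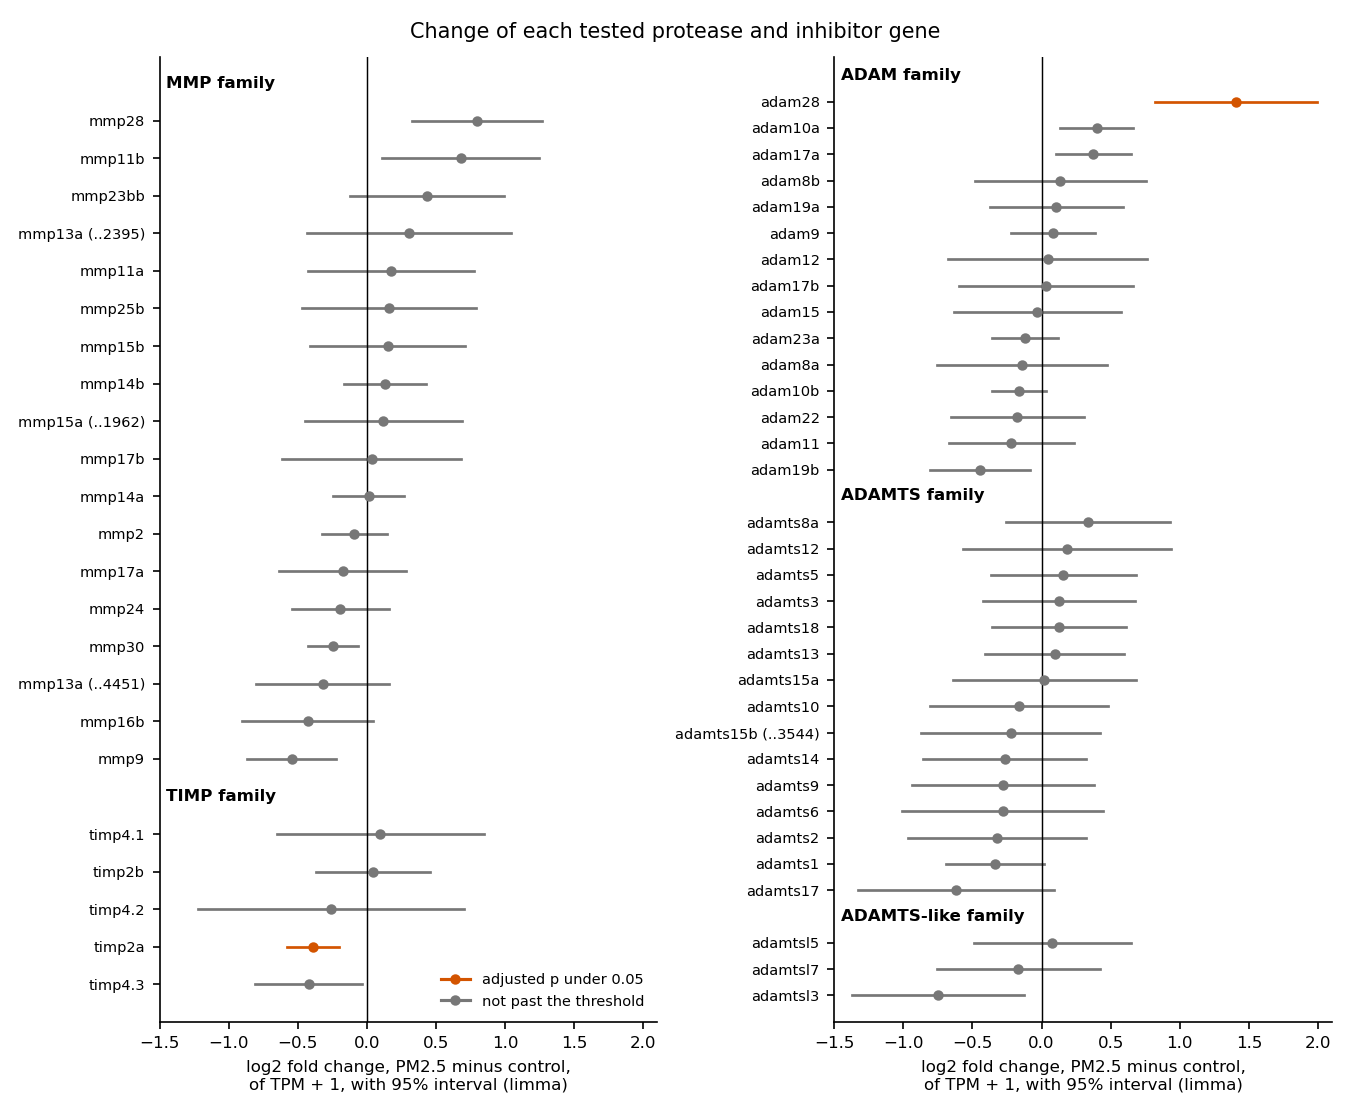
Log2 fold change of TPM + 1 (PM2.5 minus control) with its 95% limma interval for each tested member, by family and ordered by size, with those at an adjusted p under 0.05 in orange. adam28 at 1.41 and timp2a at -0.39 are the 2 coloured points, and most other intervals span 0.

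By family, the log2 fold change was positive for 11 and negative for 7 MMPs, positive for 2 and negative for 3 TIMPs, positive for 8 and negative for 7 ADAMs, positive for 7 and negative for 8 ADAMTSs, and positive for 1 and negative for 2 ADAMTS-like genes. Over all tested genes 58.5% were positive and 41.5% negative. These signs depended on the scaling of the libraries. A TMM-type rescaling moved the median of all tested genes by -0.08 and left 22 members positive and 34 negative, against 10225 and 10649 of all tested genes. Quantile normalization moved it by -0.11 and left 16 members positive and 40 negative, including all 5 TIMPs among the negative, against 9407 and 11463 of all tested genes. Over all tested genes, the calls split into 1766 higher and 547 lower as deposited, 1274 and 809 after the TMM-type rescaling, and 1324 and 962 after quantile normalization. timp2a was called lower and adam28 higher under each of the 3 scalings, and mmp9 passed as lower after both rescalings (log2 fold changes -0.63 and -0.65). Where the lowest of the 4 values of a member fell was also uneven between libraries. PM2.5 library 1 held it for 24 of the 56 tested members (42.9%, against 29.9% of all tested genes), and for 9 of the 15 ADAMTSs, while PM2.5 library 2 held it for 16.1% of members and 13.8% of genes.

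Because the zebrafish genome carries many genes as a and b copies, the log2 ratio of the copies was fitted in the same way, a comparison added after the values had been seen. Of 10 member pairs 1 passed, against 9.08% of 2490 pairs over the whole table, a similar share. The count is therefore no result about these families. The ratio of adam10a to adam10b was 0.555 and 0.520 in PM2.5 libraries and 0.350 and 0.367 in control libraries, a difference in log2 fold change of 0.56 (SE 0.12, 95% interval 0.29 to 0.84, adjusted p = 0.025). The adam10a share was thus higher in both PM2.5 libraries, although neither copy passed by itself. The call was lost without PM2.5 library 1 (adjusted p = 0.13), without PM2.5 library 2 or control library 1 (adjusted p = 0.064 and 0.063), and without the intensity trend (adjusted p = 0.11). The ratio of timp2a to timp2b was 8.27 and 9.37 in PM2.5 libraries and 12.1 and 12.0 in control libraries (difference -0.44, adjusted p = 0.14), and that of adam17a to adam17b was 2.97 and 1.62 in PM2.5 libraries and 1.70 and 1.71 in control libraries (difference 0.34, adjusted p = 0.49). For the timp2 copies the difference between them was not past the threshold, although timp2a passed and timp2b did not. Differences close in size to that of the adam10 pair, also without overlap, were found in pairs that did not pass. The ratio of adam19a to adam19b was 1.22 and 0.884 in PM2.5 libraries and 0.682 and 0.665 in control libraries (difference 0.55, adjusted p = 0.21). That of mmp11a to mmp11b was 0.778 and 1.13 in PM2.5 libraries and 1.97 and 1.24 in control libraries (difference -0.51, adjusted p = 0.41).

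**Figure D5:**
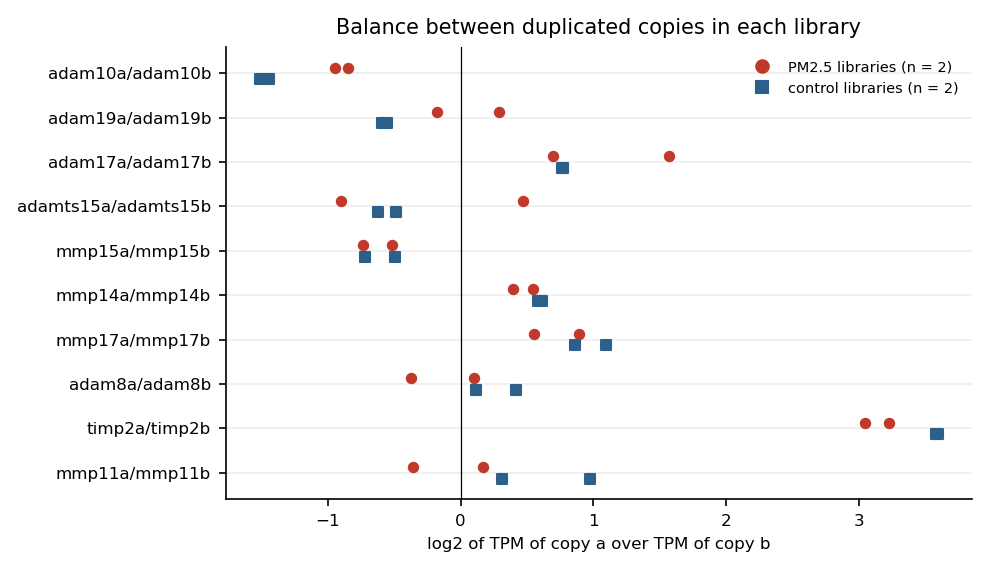
Log2 of the TPM of copy a over the TPM of copy b for 10 member pairs in the 2 PM2.5 libraries (red circles) and the 2 control libraries (blue squares), ordered by the difference between groups. The adam10a/adam10b pair, at the top, has both PM2.5 points to the right of both control points, and values left of 0 mean that copy b had the higher level.

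Genes that activate, inhibit or partner the proteases, or serve as their substrates, were read from the same fit. Of 98 listed genes 87 were in the table and 78 were tested, and 12 were higher and 5 lower (21.8% called, against 11.1% of all tested genes). The list was chosen with earlier results of these data known, so the larger share is not a result about these genes. The median log2 fold change of the 78 was -0.06. With any 1 library left out, ctss2.2, ctsk, ctsba, ctsla, cdh1 and col1a1b still passed (adjusted p at most 0.038), and the other 11 lost their call in at least 3 of the 4 such fits. Among the activators, none of 7 tested genes of the plasminogen system passed, and plg had 38.8 and 38.4 TPM in PM2.5 larvae and 43.8 and 43.1 TPM in control larvae. The next highest level in this role was that of serpine2, with 24.7 and 24.6 TPM in PM2.5 larvae and 24.8 and 27.6 TPM in control larvae. Of 4 tested proprotein convertases, which remove the inhibitory propeptide of membrane-type MMPs, ADAMs and ADAMTSs, 2 were higher. furina had 15.9 and 17.9 TPM in PM2.5 libraries, against 9.73 and 11 TPM in control libraries (log2 fold change 0.65, 95% interval 0.33 to 0.98, adjusted p = 0.032). pcsk7 had 19.9 and 21.7 TPM in PM2.5 libraries, against 14.1 and 15.1 TPM in control libraries (log2 fold change 0.48, 95% interval 0.21 to 0.76, adjusted p = 0.048), and its call was lost after both rescalings (adjusted p = 0.067 and 0.069). The other 2 did not pass. furinb had 16.5 and 21.5 TPM in PM2.5 larvae and 18.8 and 17.5 TPM in control larvae (adjusted p = 0.87), and pcsk5b, named after its values were seen, had 9.41 and 10.5 TPM in PM2.5 libraries, against 13.5 and 14.5 TPM in control libraries, without overlap and with a negative log2 fold change (log2 fold change -0.46, 95% interval -0.78 to -0.13, adjusted p = 0.084).

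Of 8 other inhibitors tested, 1 was called, against 11.1% of all tested genes. a2ml, an alpha-2-macroglobulin-like trap of proteases, had 21.2 and 17.9 TPM in PM2.5 libraries, against 30.5 and 33.1 TPM in control libraries and was lower (log2 fold change -0.67, 95% interval -0.96 to -0.38, adjusted p = 0.019). The testican genes spock3 and spock2 had the highest levels and did not pass (105 and 116 TPM in PM2.5 larvae and 116 and 119.9 TPM in control larvae for spock3). The gene of the MMP inducer basigin, bsg, had 316 and 290.2 TPM in PM2.5 libraries, against 286 and 272 TPM in control libraries and did not pass (adjusted p = 0.27).

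Of 13 other proteases of matrix turnover tested, 6 were higher and none lower, and all 6 were cathepsins, proteases of the lysosome. Over all tested genes 8.46% were higher and 2.62% lower. Because the list was chosen with earlier results of these data known, the count is not a result about this role. Of 7 tested cathepsins the remaining gene, ctsbb, named after its values were seen, had 25.7 and 27.9 TPM in PM2.5 larvae and 26.4 and 35.5 TPM in control larvae, with overlapping groups, and did not pass (log2 fold change -0.19, 95% interval -0.56 to 0.18, adjusted p = 0.49). ctss2.2 had 54.0 and 58.8 TPM in PM2.5 libraries, against 5.94 and 7.48 TPM in control libraries (log2 fold change 2.90, 95% interval 2.57 to 3.23, adjusted p = 0.00018), and ctsk, whose product degrades collagen in bone, had 50.8 and 42.3 TPM in PM2.5 libraries, against 11.5 and 12.9 TPM in control libraries (log2 fold change 1.84, 95% interval 1.53 to 2.15, adjusted p = 0.00077). The log2 fold changes of ctss2.1, ctsba, ctsla and ctsd were 1.24, 1.1, 0.66 and 0.41, and that of ctsd did not pass after the TMM-type rescaling (adjusted p = 0.055). Of the 6 macrophage markers only cd68 passed (log2 fold change 2.75), while csf1ra and csf1rb had log2 fold changes of 0.05 and 0.005 and mpeg1.1, marco and spi1b of 0.63, 0.60 and 0.38. The part of cell numbers in the cathepsin values was not tested.

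Of 8 tested partners of ADAM10 and ADAM17, the tetraspanin gene tspan14, whose product binds ADAM10, was higher with 29.5 and 27.0 TPM in PM2.5 libraries, against 20.9 and 19.4 TPM in control libraries (log2 fold change 0.47, 95% interval 0.21 to 0.73, adjusted p = 0.043), a call that both rescalings ended (adjusted p = 0.10 and 0.11). The 2 partners with the highest level, tspan5b and tspan5a, had overlapping groups and did not pass (log2 fold changes -0.38 and 0.07, adjusted p = 0.28 and 0.84). Of the 8 partners, 7 had a positive log2 fold change and 1 a negative one, where 58.5% of all tested genes were positive. This list was chosen with earlier results of these data known, so the count is not a result about these partners. Of 16 tested substrates of sheddases, 2 were higher and 1 lower, where 8.46% of all tested genes were higher and 2.62% lower. This list too was chosen with earlier results of these data known, and the count is not a result about its genes. cdh1, the E-cadherin gene, had 51.0 and 49.7 TPM in PM2.5 libraries, against 22.2 and 22 TPM in control libraries (log2 fold change 1.15, 95% interval 0.94 to 1.36, adjusted p = 0.0010), and dlc, a Notch ligand gene, had 28.6 and 29.8 TPM in PM2.5 larvae and 21.9 and 20.3 TPM in control larvae (log2 fold change 0.45, 95% interval 0.21 to 0.69, adjusted p = 0.040). prnpa, a prion protein gene, had 56.9 and 51.4 TPM in PM2.5 libraries, against 75.2 and 81.2 TPM in control libraries (log2 fold change -0.52, 95% interval -0.73 to -0.31, adjusted p = 0.015). The amyloid precursor genes appa and appb did not pass, and tnfa was listed at 0 in every library. tnfb, the other tumour necrosis factor gene of the list, which was named after its values were seen, had 2.2 and 2.79 TPM in PM2.5 libraries, against 0.695 and 0.704 TPM in control libraries. Its groups did not overlap and the ratio was 3.57, but it did not pass (log2 fold change 1.03, 95% interval 0.35 to 1.72, adjusted p = 0.070). None of 5 tested ligand genes of ADAM22 and ADAM23 passed, and lgi1a had 33.5 and 34.0 TPM in PM2.5 larvae and 35.7 and 36.1 TPM in control larvae. For lgi1b the values were 14.5 and 17.6 TPM in PM2.5 larvae and 15.2 and 14.8 TPM in control larvae.

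Among 14 tested ADAMTS substrates 3 were lower, all of them type I collagen genes. Over all tested genes 2.62% were lower, and this list too was chosen with earlier results of these data known. col1a1b had 344 and 353 TPM in PM2.5 libraries, against 486 and 494 TPM in control libraries (log2 fold change -0.49, 95% interval -0.59 to -0.39, adjusted p = 0.0017). col1a1a and col1a2 had log2 fold changes of -0.21 (adjusted p = 0.027) and -0.31 (adjusted p = 0.0098). The thrombospondin gene thbs1a was higher, with 24.6 and 23.7 TPM in PM2.5 libraries, against 14.3 and 14 TPM in control libraries (log2 fold change 0.73, 95% interval 0.47 to 0.98, adjusted p = 0.010). Neither of 2 tested fibrillin and LTBP genes, fbn2b and ltbp1, passed.

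There were 10 members that had a mean below 1 TPM and were not tested, namely mmp13b, mmp19, mmp20a, mmp20b, mmp21, mmp25a, 1 of the 2 mmp15a IDs, adamts16, 1 of the 2 adamts15b IDs and adamtsl2. Their highest value in any library was 1.41 TPM. mmp19 had 0 and 0.0636 TPM in PM2.5 libraries and 0.450 and 0.329 TPM in control libraries, and adamts16 had 0.632 and 0.635 TPM in PM2.5 libraries and 1.07 and 1.41 TPM in control libraries. mmp20a and mmp20b, copies of the gene of the tooth enamel protease, stayed below 1 TPM in all 4 libraries, and the untested mmp15a ID was listed at 0 throughout. The 19 tested members outside the rule for naming members given below, adamts3 among them, had log2 fold changes from -0.28 to 0.17, levels from 1.09 to 11.6 TPM and adjusted p-values of 0.57 or more.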

How the data were processed

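Whole-larva RNA was sequenced in 4 libraries, 2 from PM2.5 larvae and 2 from untreated larvae, each grouped by its title. The authors deposited 1 table of TPM. Per the submitters' processing notes, cutadapt 1.18, STAR 2.6.1c and the genome build GRCz11 were named, while which counting program, annotation, gene lengths and strand setting were used is not given in the sources used here. Labels and series text name more than 1 RNA kit and sequencer model. Of 32925 rows 405 repeated a gene ID with the same TPM, and each of the 32520 IDs was used once. TPM is a share of a fixed total and keeps no depth, so no counting interval is given.

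Genes averaging 1 TPM or more were compared by limma 3.58.1, run in R 4.3.3, on the log2(TPM + 1) scale (group as the only term, intensity trend, two-sided, Benjamini-Hochberg adjustment over all 20874 tested genes, threshold 0.05). A fold change on this scale understates the change of low genes. Each gene has 2 residual degrees of freedom, to which eBayes adds 4.15, and the fit was tested on simulated data first. Sums of TPM and marker lists were described without a test. The members and lists were chosen with earlier results of these data known. Named members are those past the threshold, all TIMPs, in each family the 3 with the highest level and the 3 largest positive and negative log2 fold changes, and mmp2, mmp9, mmp13a, mmp14a, mmp14b, adam10a, adam10b, adam17a, adam17b and adamts13. Named related genes are those past the threshold and the 2 with the highest level in each role. Alternatives were another pseudocount, other minimum levels, a TMM-type rescaling, quantile normalization, no intensity trend, the replicate number as a block, and each library left out. Gene names were matched to a reference table for 65 of 66 IDs, in which 1 mmp15a ID is zpd and 1 adamts15b ID is ADAMTS8. Gene order came from a RefSeq annotation of the assembly GRCz12tu and was used for neighbours only.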

Additional observations from a re-analysis of the deposited data

How the results depend on the processing

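The call of adam28 as higher held with a pseudocount of 0.1 TPM, with no minimum level, after both rescalings and with the replicate block, and that of timp2a as lower held in these and with a minimum of 5 TPM, under which adam28 was not tested. Members called higher numbered 2 with the pseudocount of 0.1 TPM and with the block, and members called lower 2 with the minimum of 5 TPM, after the TMM-type rescaling and with the block, and 3 after quantile normalization. The added calls were MMPs, 1 higher with the pseudocount of 0.1 TPM, the minimum of 5 TPM and the block (mmp28, adjusted p = 0.048, 0.041 and 0.043), and 1 lower with the minimum of 5 TPM, the TMM-type rescaling and the block or 2 lower after quantile normalization (mmp9, adjusted p = 0.038, 0.043, 0.036 and 0.045, and mmp30, 0.027). ADAMs called higher were 0 with the minimum of 5 TPM. Without the intensity trend 0 members were called in either direction, so ADAMs higher and TIMPs lower were 0, with 665 genes higher and 105 lower and related genes 6 higher and 0 lower. Quantile normalization gave 962 genes lower. Related genes called lower numbered 8 after the TMM-type rescaling and with the block, and 9 after quantile normalization. Leaving out 1 library at a time gave 419 to 619 genes higher and 98 to 254 lower, 0 members in either direction (0 TIMPs lower and 0 ADAMs higher), and 5 to 6 related genes higher and 1 lower. The replicate block was only an alternative, and it gave 2072 genes higher and 781 lower. Across tested genes, the difference of library 1 from library 2 with PM2.5 had a correlation of 0.0654 with that in controls, which does not show pairing.

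Over all 56 tested members, 7 signs reversed after the TMM-type rescaling, 13 after quantile normalization and 20 with at least 1 of the 4 libraries left out. Among the 37 named members, signs reversed after the TMM-type rescaling for adam17b (-0.047), mmp14a (-0.073) and timp2b (-0.028), and after quantile normalization for adam17b (-0.080), adamts13 (-0.034), adamtsl5 (-0.053), mmp14a (-0.085), timp2b (-0.075) and timp4.1 (-0.037). The median of all tested genes turned to -0.0079 after the first and -0.042 after the second. The summed member TPM differed by -73.0 after the TMM-type rescaling. With 1 library left out, the log2 fold changes of named members that changed sign had the ranges adam11 -0.45 to 0.014, adam17b -0.35 to 0.41, adam22 -0.39 to 0.044, adamts12 -0.032 to 0.40, adamts14 -0.55 to 0.017, adamtsl5 -0.085 to 0.24, adamtsl7 -0.36 to 0.018, mmp13a -0.033 to 0.64, mmp14a -0.010 to 0.036, timp4.1 -0.22 to 0.41 and timp4.2 -0.67 to 0.15. The cause of these changes was not tested. With 2 libraries per group, changes smaller than the sizes given for the test could not be called.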

Other observations

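Some genes of these families carry other symbols in the table and were found through a reference table of gene names after the values had been seen. zgc:174164, named adam9b there (ENSDARG00000057138, chromosome 12), had 4.99 and 5.93 TPM in PM2.5 libraries, against 2.1 and 2.18 TPM in control libraries. The groups did not overlap, the ratio was 2.55 and it passed as higher (log2 fold change 1.03, SE 0.21, 95% interval 0.53 to 1.54, adjusted p = 0.029). For comparison, the member adam9 had 11.7 and 12.3 TPM in PM2.5 larvae and 11.4 and 11.1 TPM in control larvae (log2 fold change 0.08, 95% interval -0.22 to 0.39, adjusted p = 0.73). si:ch211-154c21.1, named adamts2b, had 2.37 and 9.33 TPM in PM2.5 larvae and 4.89 and 5.36 TPM in control larvae, with 1 PM2.5 value below and 1 above both control values (adjusted p = 0.96). MMP23B had 10.9 and 8.93 TPM in PM2.5 larvae and 6.93 and 11.5 TPM in control larvae (adjusted p = 0.78), ADAM12 had 1.61 and 1.47 TPM in PM2.5 larvae and 1.42 and 0.762 TPM in control larvae (adjusted p = 0.59), and ADAMTS7 was below 1 TPM in every library and was not tested.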
